A study of Mus musculus with 13 samples.

Results

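Fat from the groin (inguinal white adipose tissue, a subcutaneous depot) was compared between mice whose sleep was fragmented and mice left to sleep undisturbed, both kept on normal chow. SF_ConD held 5 fragmented-sleep mice and SC_ConD held 3 undisturbed mice. Tissue was taken from each mouse singly after a 12 h fast, and mice had been allotted at random with matched weights, per the labels. The sources used here do not give strain, genotype, sex, age, how sleep was broken or for how long. Genes were taken where FPKM (reads scaled by gene length and by a divisor for each library, described below) was at least 1 in at least 3 of these 8 libraries. This held for 13160 of the 54532 genes in the deposited table. Of these, 11544 were protein coding, 685 were processed pseudogenes and 214 were long intergenic RNAs. At the edge of that rule, the 1073 genes with exactly 3 libraries at the minimum had a median of their mean level of 1.11 FPKM, and the 1300 genes left out with exactly 2 had 0.753 FPKM. The remaining group, SF_HPD (5 mice, fragmented sleep, high-protein diet), entered the fit only to help estimate the spread between mice of 1 group.

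White fat stores triglyceride in adipocytes and releases it in fasting. Adipocytes also secrete hormones, among them leptin, which reports the size of the fat store to the brain and falls in fasting. Around them lie a collagen and fibronectin matrix made by stromal progenitors, blood vessels, macrophages and, in this pad, a lymph node and, in females, mammary ducts. Broken sleep is studied in fat because sleep loss is known to alter feeding hormones, glucocorticoids, the daily clock and immune cells. A whole pad gives the RNA of all these cells together, so fewer cells of a type and less RNA per cell cannot be told apart in any value given here.

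The fat identity of the tissue held in every library, and several libraries also carried transcripts of other tissues. The mean log2(FPKM + 1) of 19 adipocyte genes was 7.40 to 8.84 in the 5 SF_ConD libraries and 8.16 to 8.77 in the 3 SC_ConD libraries. The 24 liver genes had a mean of 8.89 in SC_ConD 2 and 7.74 in SC_ConD 3, against 2.54 in SC_ConD 1 and 1.56 to 4.12 in SF_ConD. The 17 B cell and lymph node genes had means of 5.60, 5.26 and 4.70 in SF_ConD 1, 4 and 5, against 0.42 to 1.39 in the other 5. These 3 libraries, with SF_HPD 4 and 5, are called lymphoid-rich here. Skeletal muscle genes (5 of 12 listed reached the FPKM minimum) had a mean of 8.63 in SC_ConD 3, 4.07 in SF_ConD 2 and 0.63 to 2.96 elsewhere. Of the markers listed, the milk protein gene Wap, the muscle gene Tnnc2 and the noradrenaline enzyme gene Dbh were listed at 0 in all 8. Reads on genes ran from 15079062 in SC_ConD 3 to 18303302 in SF_ConD 4. Mitochondrial genes took 7.19% to 33.2% of the reads. In SC_ConD 1 and SF_ConD 3 levels relative to the mean of all 13 libraries leaned toward long genes (Spearman rho with length across genes 0.572 and 0.498). In the other 6 the rho ran from -0.468 in SF_ConD 1 to 0.0328 in SF_ConD 4. SC_ConD 2, at -0.317, also leaned toward short genes. SC_ConD 1 was thus the 1 undisturbed library whose liver list lay within the SF_ConD range. Of the 8 libraries it carried the strongest lean toward long genes. It is called the liver-low library below, although it held some liver transcripts (Alb, the albumin gene, at 52.2 FPKM), and SC_ConD 2 and 3 are called the liver-rich libraries. How far these differences enter the gene values was not tested beyond the fits without these libraries that are given beside the results. Those fits keep few mice. Without the lymphoid-rich libraries only SF_ConD 2 and 3 remain of SF_ConD, and without SC_ConD 2 and 3 only SC_ConD 1 remains of SC_ConD.

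**Figure D1:**
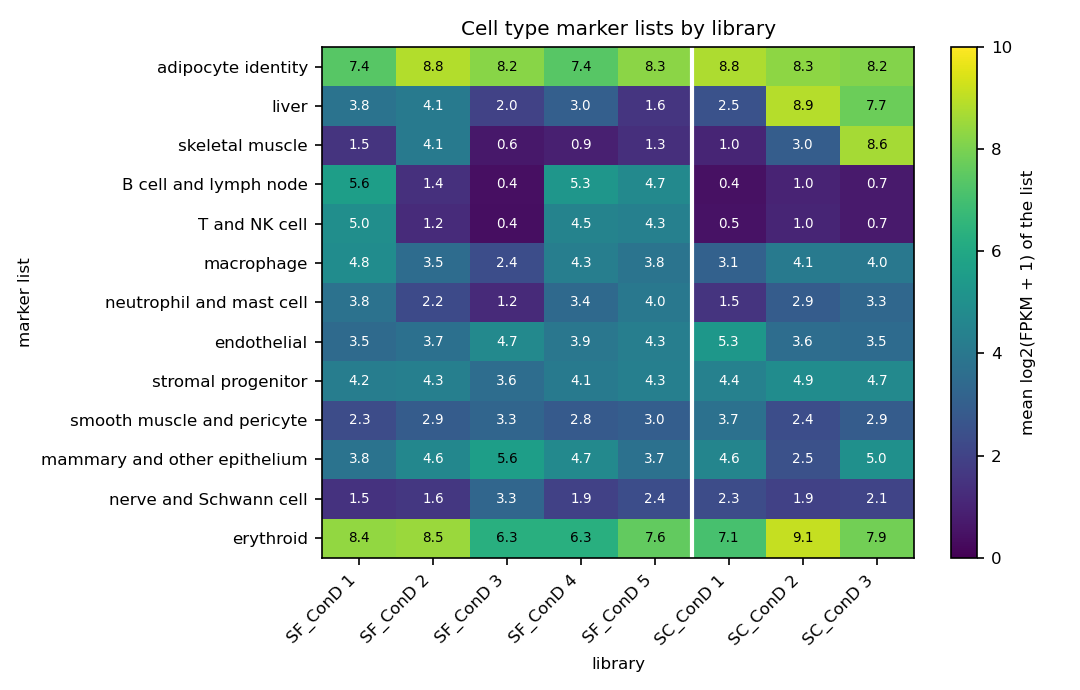
Mean log2(FPKM + 1) of each cell type marker list (rows) in each of the 8 libraries (columns), with the 5 SF_ConD libraries left of the white line and the 3 SC_ConD libraries right of it. Adipocyte genes are high in all 8, liver genes are high in SC_ConD 2 and 3 (8.9 and 7.7), and B cell and T cell genes are high in SF_ConD 1, 4 and 5.

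No gene passed at an adjusted p under 0.05 (limma, Benjamini-Hochberg over 13160 genes; 0% called; smallest adjusted p 0.741), and limma-voom on reads worked back from FPKM also called 0. At an unadjusted limma p under 0.05 there were 751 genes (5.71%), where 658 would be there if p-values were spread evenly. Of these, 361 lay higher in SF_ConD (2.74%) and 390 lower (2.96%). After rescaling to TPM, which moved the median log2 fold change of all genes from -0.02 to 0.18, the split was 311 higher and 192 lower. In 463 genes (3.52%) the values of the groups did not overlap, with SF_ConD above SC_ConD in 215 (1.63%) and below it in 248 (1.88%). By the fitted fold change alone, 6280 genes lay higher (47.7%) and 6880 lower (52.3%). The SE of the log2 fold changes had a median of 0.474. All fold changes are SF_ConD minus SC_ConD on log2(FPKM + 1), a scale that understates low genes. Because no gene passed, each gene below is given as values and not as a change.

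Leptin and a set of other genes lay lower in SF_ConD in every fit that held them. Many of them encode secreted or cell-surface proteins, a share that was not compared with that over all genes. Lep (ENSMUSG00000059201, chromosome 6, 29060220 to 29073877), which encodes leptin, was at 5.87, 16.4, 5.33, 1.71 and 2.83 FPKM in SF_ConD 1 to 5. It was at 72.7, 35.6 and 24.6 FPKM in SC_ConD 1 to 3. Every undisturbed mouse lay above every fragmented-sleep mouse, and the highest value was in SC_ConD 1, the liver-low library. The mean of SC_ConD was 6.91 times that of SF_ConD, and the log2 fold change was -2.77 (SE 1.15, limma adjusted p = 0.871). It was -1.97 without the lymphoid-rich libraries and -3.62 without SC_ConD 2 and 3. The 250 bases before the RefSeq start of Lep (GRCm38.p6, chr6:29059971-29060220, plus strand) are shown for the following reason. Lep is the fat hormone that lay at least 1 log2 unit lower in the main fit and the 21 alternatives described below. The capitals mark TTGCGCAA, a palindromic C/EBP-type motif that reads alike on both strands. It is in 54 of 32851 RefSeq mouse windows of that length (0.164%) and in 1 of the 10 adipokine genes that had a window (of 12).
Lep: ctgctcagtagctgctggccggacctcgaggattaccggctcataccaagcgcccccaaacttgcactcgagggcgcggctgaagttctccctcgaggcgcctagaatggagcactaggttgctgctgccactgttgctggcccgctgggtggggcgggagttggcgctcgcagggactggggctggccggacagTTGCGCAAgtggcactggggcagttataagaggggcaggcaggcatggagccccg
The match describes the letters of this window and says nothing of binding in these mice.

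Lep was 1 of 17 lower genes that kept a log2 difference of at least 1 in the same direction under 21 alternative fits. They were among 168 genes without overlap, averaging at least 2 FPKM and of the kinds that could be named. The fits with a pseudocount of 0.1, limma-voom, no filter or a mean of at least 5 FPKM were not among the 21. These 17 were picked after their values were seen and carry no test of their own. Ccdc80, a secreted matrix protein made by fat tissue, was at 20.1, 33.1, 19.6, 13.1 and 27.0 FPKM in SF_ConD and at 108, 110 and 70.7 FPKM in SC_ConD (log2 fold change -2.08, SE 0.78). The lowest undisturbed value was well above the highest fragmented-sleep value. Npr3, the receptor that clears natriuretic peptides and so damps their lipolytic signal, was at 0.802, 1.69, 3.97, 1.35 and 2.22 FPKM against 25.5, 9.51 and 7.21 FPKM (-2.22, SE 0.77). H6pd, which makes NADPH inside the endoplasmic reticulum for the enzyme that regenerates glucocorticoid, was at 10.3, 18.6, 19.3, 13.9 and 23.3 FPKM against 59.4, 56.5 and 39.3 FPKM (-1.57, SE 0.49). For Npr3 and H6pd, SC_ConD 1 was the highest library. Fads3, of the fatty acid desaturase family, was at 12.0 to 49.7 FPKM in SF_ConD and 73.5 to 218 FPKM in SC_ConD (-2.53, SE 0.90).

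Several of the others encode matrix or cell-surface proteins. Fn1 and Thbs1 are described below. Aebp1, a collagen-binding protein, was at 3.35 to 6.77 FPKM in SF_ConD and 10.9 to 16.5 FPKM in SC_ConD (-1.36, SE 0.51). Efemp1, which encodes fibulin-3, was at 3.37 to 10.9 and 17.4 to 29.7 FPKM (-1.61, SE 0.46). Col18a1, the collagen of basement membranes from which endostatin is cut, was at 1.84 to 4.17 and 8.21 to 15.3 FPKM (-1.65, SE 0.52). The groups did not overlap in these 3, as in all 17 genes, because the genes were picked that way. Gpc3, a glypican of the cell surface, was at 0.699 to 2.78 and 4.90 to 7.49 FPKM (-1.57, SE 0.48). Chrdl1, a secreted antagonist of bone morphogenetic proteins, was at 1.27 to 2.93 and 7.26 to 11.4 FPKM (-1.67, SE 0.49). Cd248, a surface protein of stromal cells and pericytes, was at 0.309 to 2.69 and 5.01 to 7.09 FPKM (-1.42, SE 0.48). The set held both structural proteins and modifiers of signals. Thbd, the thrombomodulin of vessel walls, was at 1.86 to 11.5 and 12.8 to 17.6 FPKM (-1.498, SE 0.72). Man2a1, a mannosidase that trims N-glycans in the Golgi, was at 2.67 to 7.08 and 10.1 to 18.2 FPKM (-1.39, SE 0.53), and Eepd1 was at 4.69 to 9.57 and 14.1 to 28.03 FPKM (-1.51, SE 0.54). Cp, the copper-carrying ferroxidase ceruloplasmin that the liver secretes into plasma, was at 6.76 to 9.003 FPKM in SF_ConD and at 17.9, 79.7 and 47.4 FPKM in SC_ConD 1 to 3 (-2.28, SE 0.66). Its higher values were in the liver-rich libraries, and its log2 fold change was -1.03 with those and the lymphoid-rich libraries left out together. Among the 17 genes, SC_ConD 2 and 3 both lay above SC_ConD 1 in 4 and both below it in 6, against 39.3% and 40.1% of all genes. The picking used the fit without SC_ConD 2 and 3, which works against genes high only in those libraries. These counts were therefore shaped by the picking.

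Only 2 of 136 such genes in the other direction met the same condition. Areg, which encodes amphiregulin, a ligand of the epidermal growth factor receptor, was at 0.381, 2.10, 1.85, 25.2 and 4.15 FPKM in SF_ConD and at 0.0488, 0 and 0 FPKM in SC_ConD (log2 fold change 2.11, SE 0.86, limma adjusted p = 0.871). By the picking, it lay above the undisturbed mice in each fragmented-sleep mouse, and 1 mouse was far above the rest. Without that mouse, SF_ConD 4, the log2 fold change was 1.47. Sbp, which encodes a spermine-binding protein, was at 0.898, 3.74, 5.65, 2.79 and 1.597 FPKM against 0.686, 0 and 0.837 FPKM (1.30, SE 0.41). For this gene the 2 highest values were in SF_ConD 2 and 3, the libraries poor in lymphoid transcripts.

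**Figure D2:**
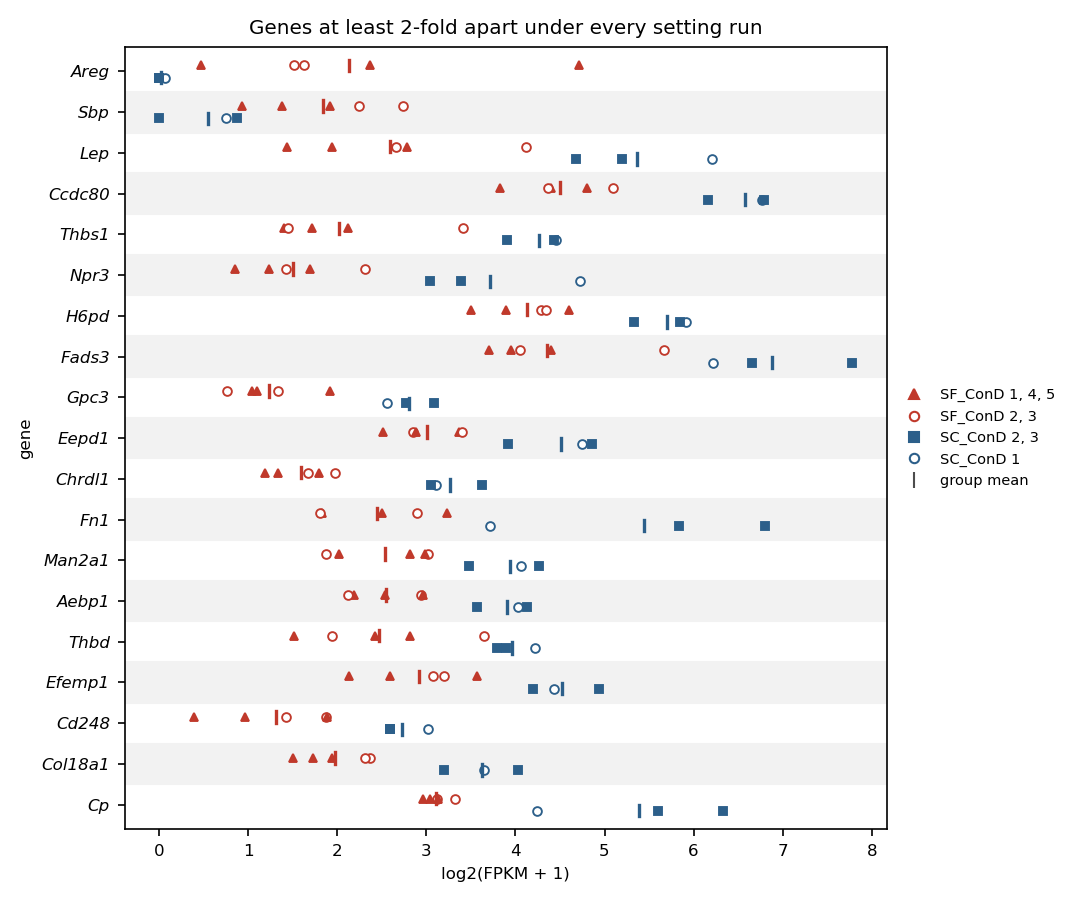
log2(FPKM + 1) of the 19 genes (rows) that differ by at least 1 log2 unit in the same direction under the main fit and 21 alternatives. Each mouse has 1 symbol (triangles, SF_ConD 1, 4 and 5, open red circles, SF_ConD 2 and 3, squares, SC_ConD 2 and 3, open blue circles, SC_ConD 1). A bar marks each group mean. The groups do not overlap for any of them, as the genes were picked that way, and Areg and Sbp alone lie higher in SF_ConD.

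The 12 lower genes of smallest p, among those without overlap, included matrix, retinoid and growth factor receptor genes. Fn1 (ENSMUSG00000026193, chromosome 1, 71585520 to 71653200), the fibronectin that links cells to collagen and is also a plasma protein of the liver, was at 2.54, 6.42, 2.50, 4.66 and 8.40 FPKM in SF_ConD. In SC_ConD it was at 12.1, 110 and 56.1 FPKM. The log2 fold change was -3.00 (SE 0.63, limma adjusted p = 0.741), and -1.26 without SC_ConD 2 and 3. The 12.1 FPKM of SC_ConD 1 was still above each fragmented-sleep mouse. Thbs1, thrombospondin 1, a matrix protein that activates TGF-beta, was at 1.63, 1.73, 9.65, 2.27 and 3.34 FPKM against 20.9, 20.5 and 13.9 FPKM (-2.24, SE 0.61). Of the 12 genes it alone had no higher level in SC_ConD 2 and 3 than in SC_ConD 1, and its log2 fold change was -2.44 without SC_ConD 2 and 3.

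In the other 11, SC_ConD 2 and 3 both lay above SC_ConD 1. Egfr, the epidermal growth factor receptor, was at 1.10, 2.04, 1.73, 1.03 and 2.26 FPKM against 2.46, 25.8 and 13.4 FPKM (-2.09, SE 0.54). Its value in SC_ConD 1 was just above the highest fragmented-sleep value, and its log2 fold change was -0.42 without SC_ConD 2 and 3. Il1r1, the signalling receptor of interleukin-1, was at 1.95 to 3.60 FPKM against 3.67, 27.6 and 15.9 FPKM (-1.82, SE 0.51; -0.32 without those 2). For Nol3, a repressor of apoptosis, the values were 1.89 to 5.86 and 5.96, 31.2 and 11.8 FPKM (-1.75, SE 0.47; -0.72). For these 3 genes the gap to SC_ConD 1 was small. Aldh1a1, which oxidises retinal to retinoic acid, was at 9.95, 10.9, 10.2, 6.94 and 9.26 FPKM against 19.9, 74.2 and 51.0 FPKM (-2.07, SE 0.52; -1.02). Lpgat1, an acyltransferase of lysophospholipids, was at 4.51 to 7.49 FPKM against 15.3, 45.5 and 25.7 FPKM (-1.93, SE 0.42; -1.19). Cyp4v3, a fatty acid hydroxylase, was at 5.76 to 10.6 FPKM against 14.9, 33.5 and 28.9 FPKM (-1.54, SE 0.37; -0.86). Nkd1, an inhibitor of WNT signalling, was at 0.406 to 1.28 FPKM against 2.69, 8.48 and 3.88 FPKM (-1.67, SE 0.40; -1.08). In this second set SC_ConD 1 stood well clear of the fragmented-sleep mice. Lctl, of the klotho family, was at 0.502 to 4.81 FPKM against 5.04, 11.8 and 7.57 FPKM (-1.80, SE 0.48; -1.27). Over all 248 lower genes without overlap, SC_ConD 2 and 3 both lay above SC_ConD 1 in 135 (54.4%), against 39.3% of all genes.

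The 12 higher genes of smallest p were led by the mitotic cyclin gene Ccnb2 (ENSMUSG00000032218, chromosome 9, 70407692 to 70421547). Ccnb2, whose product partners CDK1 at entry into mitosis, was at 4.70, 3.41, 0.546, 4.85 and 2.56 FPKM in SF_ConD. It was at 0.349, 0 and 0 FPKM in SC_ConD (log2 fold change 1.79, SE 0.44, limma adjusted p = 0.741). SF_ConD 3, which is poor in lymphoid transcripts, lay only slightly above SC_ConD 1. The log2 fold change was 1.24 without the lymphoid-rich libraries and 1.5 without SC_ConD 2 and 3. Donson, which helps to start DNA replication, was at 1.71 to 4.84 FPKM against 0.550 to 1.55 FPKM (1.15, SE 0.36). Hist2h2be, a core histone H2B gene, was at 4.06, 5.498, 5.75, 4.23 and 3.22 FPKM against 2.69, 0.123 and 0.705 FPKM (1.51, SE 0.42). Unlike Ccnb2 it was highest in the lymphoid-poor SF_ConD 2 and 3, and it was 1.79 without the lymphoid-rich libraries and 0.57 without SC_ConD 2 and 3. Reads of histone genes can be shared with near-identical copies, so this value is uncertain.

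Parvg and Cybc1, both known from blood cells, were highest in the lymphoid-rich libraries. Parvg, an adhesion protein of blood cells, was at 11.9, 2.90, 1.42, 13.7 and 9.99 FPKM against 0.883, 0 and 0.484 FPKM (2.36, SE 0.74). Cybc1, a chaperone of the phagocyte NADPH oxidase, was at 18.7, 6.01, 6.62, 16.9 and 14.3 FPKM against 4.16, 1.92 and 3.99 FPKM (1.55, SE 0.45). SF_ConD 1, 4 and 5 stood above SF_ConD 2 and 3 in both genes, and the log2 fold changes were 1.13 and 0.79 without the lymphoid-rich libraries. Apobec3, a cytidine deaminase that restricts retroviruses, was at 6.19 to 14 FPKM against 1.34 to 4.63 FPKM (1.47, SE 0.41; 1.21 without the lymphoid-rich libraries). Trmo, a tRNA methyltransferase, was at 1.93 to 9.05 FPKM against 0 to 1.47 FPKM (1.599, SE 0.45; 0.96). Cdc42se1, an effector of the small GTPase CDC42, was at 18.1 to 44.9 FPKM against 9.58 to 17.1 FPKM (1.16, SE 0.35; 0.74). Dcaf15, a substrate receptor of a ubiquitin ligase, was at 5.31 to 10.7 FPKM against 2.31 to 4.603 FPKM (1.07, SE 0.31; 0.78). In each of these the groups lay close to each other at their edges. Zfp422, a zinc finger gene, was at 4.54 to 8.03 FPKM against 1.16 to 3.80 FPKM (1.06, SE 0.32; 1.22), and Them6 was at 3.57 to 11.0 FPKM against 0 to 3.49 FPKM (1.84, SE 0.50; 1.33). Sbp, given above, was the last of the 12. SF_ConD 1, 4 and 5 all lay above SF_ConD 2 and 3 in 6 of the 12 and in 91 of the 215 higher genes without overlap (42.3%), against 18.5% of all genes.

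**Figure D3:**
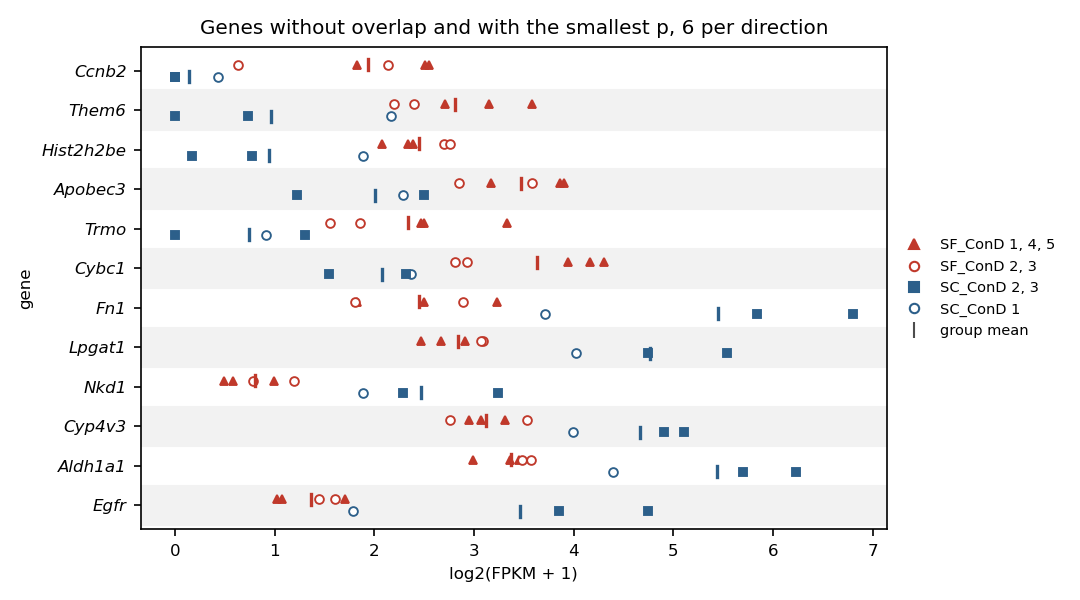
log2(FPKM + 1) of the 6 higher and 6 lower genes of smallest p among those without overlap (rows), with 1 symbol per mouse (triangles, SF_ConD 1, 4 and 5; open red circles, SF_ConD 2 and 3; squares, SC_ConD 2 and 3; open blue circles, SC_ConD 1) and a bar at each group mean. In each of these lower genes SC_ConD 1 lies nearer to the SF_ConD values than SC_ConD 2 and 3 do.

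Gene lists were read next, by how many members lay higher or lower and by the median log2 fold change, beside the 47.7% higher, 52.3% lower and median of -0.02 over all genes. In none of the 40 lists did a member pass the test, in either direction. Counts of members at an unadjusted limma p under 0.05 stand beside 2.74% higher and 2.96% lower over all genes. Counts of members without overlap stand beside 1.63% higher and 1.88% lower over all genes. A gene could reach the FPKM minimum through 1 group alone, so these counts describe the members that reached it. Of the 40 medians, 6 kept their sign under every alternative fit, those of the adipokine, adipocyte identity, stromal progenitor, matrix, cell division and DNA replication lists. The values in brackets after a gene are its log2 fold change and SE.

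Fat hormones lay lower together. Of 12 adipokine genes 11 lay lower, 3 of them at an unadjusted limma p under 0.05, with a median of -1.14 (-0.997 without the lymphoid-rich libraries, -0.34 without SC_ConD 2 and 3). Beside Lep these included Rbp4, the retinol carrier of plasma (-2.34, SE 0.95). Rbp4 was at 64.3 to 243 FPKM in SF_ConD and at 118, 3254 and 649.9 FPKM in SC_ConD 1 to 3. It was far higher in the liver-rich libraries than in SC_ConD 1, whereas Lep was highest in SC_ConD 1. Adipoq, which encodes adiponectin, was at 666.1 to 2637 FPKM in SF_ConD and at 1135, 4231 and 2225 FPKM in SC_ConD, overlapping (-0.87, SE 1.25). Bmp4, a morphogen of the fat lineage, was the exception (0.18, SE 0.47). Adipocyte identity genes lay lower in 17 of 19 with a median of -0.45 (-0.10 without the lymphoid-rich libraries, -0.94 without SC_ConD 2 and 3), and none reached an unadjusted p under 0.05. Pparg, the master regulator of adipocytes, was at 45.7 to 132 FPKM in SF_ConD and 83.2 to 168 FPKM in SC_ConD (-0.83, SE 0.45).

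Genes of fat storage and burning had medians whose sign depended on the libraries fitted. De novo lipogenesis genes lay higher in 9 and lower in 10 of 19 (median -0.03; 0.63 without the lymphoid-rich libraries, -0.70 without SC_ConD 2 and 3), from Scd1, the stearoyl-CoA desaturase (-1.37, SE 1.21), to Srebf1, the lipogenic transcription factor (0.61, SE 0.68). The groups overlapped in all 19. Of 19 lipolysis and lipid droplet genes 14 lay lower (median -0.22), among them the glycerol kinase gene Gk (-0.90, SE 0.44) and Plin2, a coat protein of lipid droplets (-0.78, SE 0.52). Of 19 fatty acid oxidation genes 14 lay lower (median -0.23), among them the fasting regulator Ppara (-1.26, SE 0.57). Insulin signalling genes lay lower in 14 of 21 (median -0.18) and branched-chain amino acid breakdown genes in 14 of 20 (median -0.20). These 4 medians turned positive without the lymphoid-rich libraries (0.38, 0.29, 0.08 and 0.18), and without SC_ConD 2 and 3 they were -0.99, -0.96, -1.03 and -0.55. The medians of the lipolysis, oxidation and insulin lists also turned positive without SC_ConD 1 alone (0.20, 0.13 and 0.15). Thermogenic genes moved even more between fits, with a median of 0.59 over 10 genes, 1.09 without the lymphoid-rich libraries and -1.06 without SC_ConD 2 and 3, and it was -0.20 without SC_ConD 3 alone. Ucp1, the uncoupling protein of beige fat, was at 0.646, 35.3, 11.2, 3.39 and 6.17 FPKM in SF_ConD and at 23.4, 3.03 and 0 FPKM in SC_ConD. The ranges of the 2 groups overlapped for this gene.

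The nuclear genes of the respiratory chain lay lower in 32 of 35 (median -0.38), none at an unadjusted p under 0.05 and none without overlap, while 12 of 13 mitochondrially encoded genes lay higher (median 0.29). Cytochrome c (Cycs) was at 33.4 to 115 FPKM in SF_ConD and 44.0 to 166 FPKM in SC_ConD (-0.53, SE 0.60). The nuclear list's median was 0.42 without SC_ConD 2 and 3 and 0.077 without SC_ConD 2 alone, and the mean of the list was highest in SC_ConD 2, at 8.26. The mitochondrially encoded list was highest in SF_ConD 5 (12.6), the library with 33.2% mitochondrial reads. Its median was -0.059 without that library alone, 0.00615 without all the lymphoid-rich libraries, 0.22 without SC_ConD 2 and 3, and -0.97 with the mean levels of the liver and B cell lists as covariates.

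Clock and stress-hormone genes are the lists closest to broken sleep. Clock genes lay lower in 16 of 19 (median -0.25), with no gene at an unadjusted p under 0.05. The clock median was 0.10 without the lymphoid-rich libraries, -0.97 without SC_ConD 2 and 3, and 0.044 without SC_ConD 1 alone. Bhlhe40, a clock repressor, was at 2.70, 6.51, 21.4, 7.60 and 3.29 FPKM against 14.5, 18.6 and 12.8 FPKM (-1.12, SE 0.69). Per1, a core clock gene that glucocorticoids also switch on, was at 2.41 to 14.1 FPKM against 4.99 to 12.98 FPKM (-0.74, SE 0.74). Cry1, a core repressor, lay the other way (0.88, SE 0.47). The sources used here do not give the time of day of collection. Glucocorticoid-responsive genes lay lower in 12 of 18 (median -0.36; -0.14 without the lymphoid-rich libraries, 0.07 without SC_ConD 2 and 3), led by Errfi1, a feedback inhibitor of growth factor receptors (-1.71, SE 0.68), and Lcn2, lipocalin 2 (-1.86, SE 1.12), both highest in SC_ConD 2 and 3. Tsc22d3, the glucocorticoid-induced leucine zipper, lay the other way (0.65, SE 0.58).

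Matrix and stromal genes lay lower as lists without overlap between the groups. Of 26 matrix genes 23 lay lower, 4 at an unadjusted p under 0.05, with a median of -0.77 (-0.49 without the lymphoid-rich libraries, -1.78 without SC_ConD 2 and 3). The mean log2(FPKM + 1) of the list was 2.55 to 3.37 in SF_ConD and 4.61, 3.57 and 3.45 in SC_ConD 1 to 3, so the liver-low library was the highest. Only 2 of the 26, Fn1 and Thbs1, had no overlap. Thbs2, thrombospondin 2, was at 3.30 to 12.4 FPKM against 30.7, 10.8 and 28.4 FPKM (-1.55, SE 0.72), and Loxl1, which cross-links elastin, at 1.10 to 7.88 FPKM against 6.24 to 10.4 FPKM (-1.21, SE 0.56). Fibrillar collagens overlapped between groups: Col1a2 was at 4.94 to 18.4 FPKM against 10.7 to 29.9 FPKM (-0.97, SE 0.56) and Col3a1 at 7.69 to 36.4 FPKM against 21.2 to 65.3 FPKM (-0.94, SE 0.62). Tgfb1, the growth factor that drives matrix production, lay the other way (1.27, SE 0.63), at 4.40 to 16.4 FPKM against 10.5, 2.56 and 0.488 FPKM. Stromal progenitor genes lay lower in 14 of 16 (median -0.54; -0.66 without the lymphoid-rich libraries, -0.24 without SC_ConD 2 and 3), with a list mean of 3.57 to 4.31 in SF_ConD and 4.39 to 4.88 in SC_ConD. Clec3b, tetranectin (-1.43, SE 0.61), and Mfap5, a microfibril protein (-1.52, SE 0.67), had the smallest p. Endothelial genes lay lower in 9 of 14 with a median of -0.18 and overlapped in all 14. That median was 0.066 without the lymphoid-rich libraries, -1.598 without SC_ConD 2 and 3, and 0.48 without SC_ConD 1 alone.

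Immune lists followed the lymphoid-rich libraries. All 17 B cell genes and all 19 T and NK cell genes lay higher, with medians of 2.51 and 2.31, which were 0.15 and 0.09 without the lymphoid-rich libraries. Those libraries were named from the B cell list, so the move of its median was built in. All 11 MHC class II genes lay higher too (median 1.10), with a median of -0.51 without those libraries. SF_ConD 2 and 3 were in the range of the undisturbed mice for these lists or close to it: their MHC class II means were 3.92 and 2.61, against 2.96 to 4.75 in SC_ConD. Macrophage genes lay higher in 9 and lower in 8 of 17 (median 0.02). The median was -0.88 without the lymphoid-rich libraries and 0.55 without SC_ConD 2 and 3, and it ran from -0.41 to 0.35 as single libraries were left out, the lowest without SC_ConD 1 and the highest without SF_ConD 3. Timd4, a macrophage receptor for phosphatidylserine, was at 88.5, 1.23, 0, 44.7 and 30 FPKM in SF_ConD and at 0.137, 2.38 and 1.13 FPKM in SC_ConD (2.61, SE 1.53). Lyve1, a hyaluronan receptor of lymphatic vessels and some macrophages, was at 0.734 to 22.6 FPKM against 1.34 to 6.01 FPKM (0.80, SE 0.92). Both were highest in the lymphoid-rich SF_ConD 1, 4 and 5, and the groups overlapped. Lower members included 3 other receptor genes, whose groups did not overlap, although the gap was small for Cd163 and Mertk. Mrc1, the mannose receptor of resident macrophages, was at 1.83, 2.26, 2.48, 3.16 and 3.10 FPKM against 5.84, 5.70 and 6.20 FPKM, without overlap (-0.97, SE 0.37). Cd163, the scavenger receptor of the same cells, was at 1.19 to 4.34 FPKM against 4.42 to 7.55 FPKM (-1.24, SE 0.57), and Mertk, an engulfment receptor, at 2.89 to 4.24 FPKM against 4.61 to 7.24 FPKM (-0.49, SE 0.40). The pan-macrophage gene Adgre1 overlapped, at 1.97 to 12.9 FPKM against 5.97 to 8.10 FPKM (-0.41, SE 0.66).

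Inflammatory mediators were mixed, at 11 higher and 8 lower of 19 (median 0.14; -0.71 without the lymphoid-rich libraries, 0.71 without SC_ConD 2 and 3, and -0.058 without SC_ConD 2 alone). Tnf, the tumour necrosis factor gene, was at 3.27, 0.491, 0.702, 2.05 and 1.65 FPKM against 0.253, 0 and 0 FPKM (1.18, SE 0.43), and Ccl4, a chemokine of lymphocytes and macrophages, at 0.237 to 4.30 FPKM against 0 in all 3 (1.25, SE 0.50). Both were highest in SF_ConD 1, 4 and 5. Tnf was 0.56 without the lymphoid-rich libraries. Cxcl1, which attracts neutrophils (-1.62, SE 0.60), Cxcl9, which attracts T cells (-2.40, SE 1.07), and Ccl2, which attracts monocytes (-1.01, SE 0.73), were highest in SC_ConD 2 and 3. Nos2, the inducible nitric oxide synthase, did not overlap, at 0.237 to 1.80 FPKM against 1.83 to 2.25 FPKM (-1.02, SE 0.42). Il6, the interleukin-6 gene, was at no more than 0.0358 FPKM in any of the 8 and was not tested. Interferon-stimulated genes lay higher in 13 of 22 (median 0.09; -0.62 without the lymphoid-rich libraries, 0.45 without SC_ConD 2 and 3, and -0.32 without SC_ConD 1 alone).

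Cell division genes lay higher in 14 of 14 that reached the FPKM minimum (of 21 listed; median 0.71), 4 at an unadjusted p under 0.05. The median was 0.32 without the lymphoid-rich libraries and 0.70 without SC_ConD 2 and 3. Besides Ccnb2, the mitotic checkpoint kinase gene Bub1b was at 1.24, 1.003, 0.611, 1.94 and 1.38 FPKM against 0.472, 0 and 0 FPKM, without overlap (0.95, SE 0.30). Both stayed under 1 FPKM in every SC_ConD mouse and so reached the minimum through SF_ConD alone. The minimum thus favoured members that lay higher, and the count of 14 of 14 was in part set by it. The directions of the listed members below the minimum are not given. Plk1, a mitotic kinase (0.89, SE 0.34), and Cdc20, an activator of the anaphase-promoting complex (0.92, SE 0.39), were also at an unadjusted p under 0.05. The list mean was 2.06, 1.89 and 1.46 in SF_ConD 1, 4 and 5, 1.41 and 0.81 in SF_ConD 2 and 3, and 0.51 to 0.97 in SC_ConD, so SF_ConD 3 lay among the undisturbed mice. DNA replication genes lay higher in 14 of 16 (median 0.68; 0.21 without the lymphoid-rich libraries), led by Mcm5, a subunit of the replicative helicase (1.38, SE 0.55), and Tk1, thymidine kinase (0.74, SE 0.31). Core histone genes lay higher in 10 of 14 (median 0.14; -0.18 without the lymphoid-rich libraries, 0.85 without SC_ConD 2 and 3, and -0.14 without SC_ConD 1 alone), and 4 of them had no overlap: Hist2h2be, Hist3h2a (0.99, SE 0.40), H2afx (0.65, SE 0.27) and H2afy (0.76, SE 0.36).

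Promoters of Ccnb2 and Cdc20 are shown as 2 of the 4 cell division genes that held both motifs given here. Other members that lay higher are not shown. Each window is the 250 bases before the RefSeq start (GRCm38.p6). Capitals mark TTTGAA, known as the cell cycle genes homology region, and CCAAT, the motif of NF-Y. Both were searched on either strand (TTCAAA and ATTGG on the other). The windows are chr9:70421555-70421804, minus strand, and chr4:118437344-118437593, minus strand.
Ccnb2: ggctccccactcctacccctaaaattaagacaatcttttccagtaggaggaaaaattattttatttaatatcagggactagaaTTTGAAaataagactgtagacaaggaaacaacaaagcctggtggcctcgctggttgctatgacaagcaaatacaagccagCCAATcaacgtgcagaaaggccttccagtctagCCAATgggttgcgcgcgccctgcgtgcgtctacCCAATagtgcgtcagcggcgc
Cdc20: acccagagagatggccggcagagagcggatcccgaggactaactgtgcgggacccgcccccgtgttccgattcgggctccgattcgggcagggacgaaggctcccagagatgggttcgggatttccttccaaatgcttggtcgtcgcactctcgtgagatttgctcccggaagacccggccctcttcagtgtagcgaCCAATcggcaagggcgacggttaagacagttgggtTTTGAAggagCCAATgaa
Ccnb2 held 1 TTTGAA and 3 CCAAT, and Cdc20 held 1 and 2. Both motifs were in 4 of the 11 cell division genes that had a window (36.4%; of 14) and in 5.55% of all 32851 windows. CCAAT alone was in 8 of the 11 (72.7%) and in 10 of 14 DNA replication genes (71.4%), against 33.8% of all windows. It was also in 15 of 16 cholesterol genes (93.8%), a list that lay lower. These shares describe the letters of the listed genes' windows and say nothing of binding in these mice.

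Cholesterol synthesis and uptake genes lay lower in 21 of 22 (median -0.87). Of these, 10 were at an unadjusted limma p under 0.05 (2.96% of all genes) and 4 lacked overlap (1.88% of all genes). Among the latter were Hsd17b7, of the late pathway (-1.32, SE 0.46), and Lss, lanosterol synthase (-0.83, SE 0.32). Hsd17b7 was at 0.401 to 1.11 FPKM against 1.51, 8.59 and 2.05 FPKM, and Lss at 0.251 to 1.0 FPKM against 1.496, 3.23 and 1.35 FPKM. Srebf2, the regulator of the pathway, lay the other way (0.45, SE 0.36). The list mean was 2.32 to 2.79 in SF_ConD, 2.53 in SC_ConD 1 and 3.98 and 3.32 in SC_ConD 2 and 3, and the median was -0.03 without the latter 2. Hmgcs1, which makes the HMG-CoA of the pathway, was at 4.56 to 20.5 FPKM against 25.2, 34.9 and 19.6 FPKM (-1.31, SE 0.52). It is shown as the 1 of 16 cholesterol genes with a window (of 22) that held TCACCCCAC, a sterol regulatory element, searched on both strands and present in 163 of all windows (0.496%). The window is chr13:119690101-119690350, plus strand.
Hmgcs1: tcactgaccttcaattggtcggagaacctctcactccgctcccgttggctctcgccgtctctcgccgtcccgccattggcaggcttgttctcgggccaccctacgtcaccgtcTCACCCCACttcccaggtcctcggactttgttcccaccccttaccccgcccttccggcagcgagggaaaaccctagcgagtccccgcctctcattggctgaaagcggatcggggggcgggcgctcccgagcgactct

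Genes of the acute phase and of protein folding also followed SC_ConD 2 and 3. Acute-phase genes lay lower in 13 of 14 (median -2.37; -0.21 without SC_ConD 2 and 3), 10 at an unadjusted p under 0.05. Lbp, the endotoxin-binding protein of plasma, was at 1.04 to 4.19 FPKM in SF_ConD and at 3.38, 21.7 and 13.3 FPKM in SC_ConD (-1.77, SE 0.51). SC_ConD 1 was inside the fragmented-sleep range of this gene. All 24 liver genes lay lower (median -3.70) and were 0.47 in the median without SC_ConD 2 and 3. Those libraries were named liver-rich from this list, so the move of its median was built in. Chaperone genes of the endoplasmic reticulum lay lower in 18 of 20 (median -0.24; -0.34 without the lymphoid-rich libraries, 0.013 without SC_ConD 2 and 3), among them Hyou1 (-1.27, SE 0.47) and Hspa5, the chaperone BiP (-1.08, SE 0.48). Hspa5 was at 30.9 to 55.2 FPKM against 51.0, 152 and 77.0 FPKM. ATF4 target genes lay lower in 13 of 17 (median -0.64; 0.06 without SC_ConD 2 and 3), led by Cth, which makes cysteine (-1.19, SE 0.42).

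**Figure D4:**
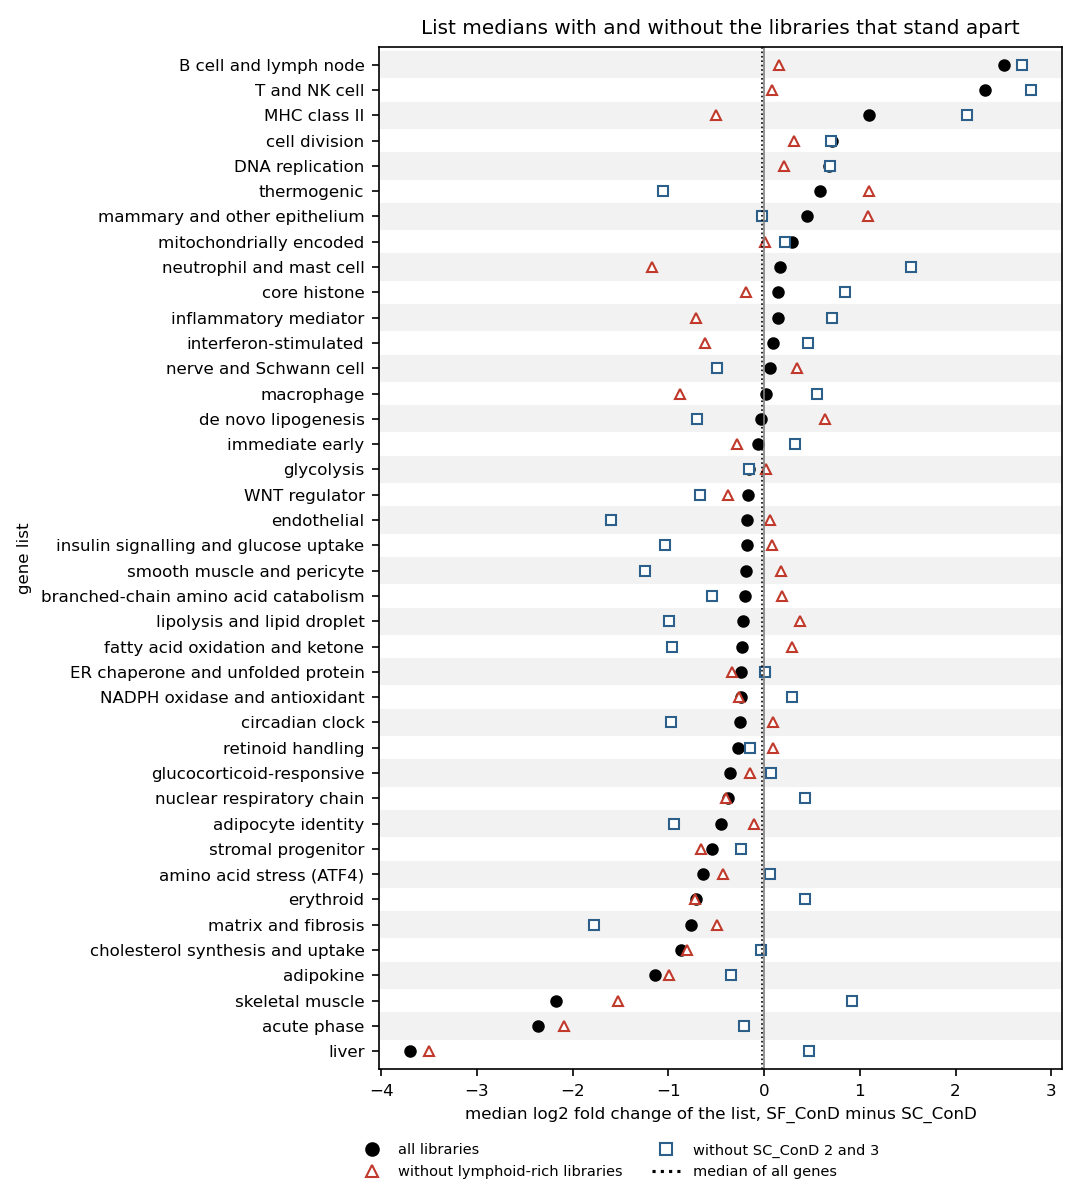
Median log2 fold change (SF_ConD minus SC_ConD) of each gene list over all libraries (filled circles), without the lymphoid-rich libraries (triangles) and without SC_ConD 2 and 3 (squares), with the median of all genes as a dotted line. The B cell and T cell medians move from 2.51 and 2.31 to near 0 without the lymphoid-rich libraries, the liver median from -3.70 to 0.47 without SC_ConD 2 and 3, and the matrix and adipokine medians stay below 0 in each. The moves of the B cell and liver medians were built in, as the libraries left out were named from those lists.

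Of the alternative fits run, the 1 without SC_ConD 1 had genes past an adjusted p under 0.05 (limma), 160 lower and 5 higher. In 138 of the 160, SC_ConD 1 lay within the range of the SF_ConD mice, and 21 of the 24 liver genes were among them. The 5 higher genes were Them6, Hist2h2be, Wdr41, Cdk2 and Klf16. Cdk2, the kinase of S phase entry, was at 2.57 to 4.71 FPKM in SF_ConD, at 4.05 FPKM in SC_ConD 1 and at 0.467 and 0.382 FPKM in SC_ConD 2 and 3. Wdr41 and Klf16 were likewise as high in SC_ConD 1 (4.10 and 7.74 FPKM) as in SF_ConD (3.59 to 4.88 and 4.52 to 6.94 FPKM).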

How the data were processed

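Total RNA of inguinal white fat from 13 mice was sequenced, and 8 libraries (SF_ConD, n = 5; SC_ConD, n = 3) are compared. The deposited values are FPKM per gene, in a table that also lists each gene's name, position and length. The submitters' processing notes name HISAT2 2.0.5, featureCounts 1.5.0-p3, CASAVA and the build mm8, with no role or order. The sources used here give neither the strand setting nor the annotation version. Of 54532 identifiers, 54409 were in a GRCm38 annotation and 53499 shared both ends with it, so positions are printed as the table has them, on GRCm38.

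FPKM times gene length gave whole reads (tolerance 0.05) for 100% of values. The divisor that these values imply, of unstated origin, lay between 0.585 and 1.17 times a library's own reads in the 8 and tracked median-of-ratios factors within 0.947 to 1.03 of a constant. No 2 of the 8 were alike within sampling noise (lowest chi-square per degree of freedom 87.1 over 28 pairs). Reads shared by near-identical copies (histone, haemoglobin, Saa1 and Saa2, Mup genes) or by overlapping genes cannot be assigned with certainty.

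Limma 3.58.1 in R 4.3.3 (trend and robust eBayes, two-sided, Benjamini-Hochberg) fitted group means of log2(FPKM + 1), computed here from the deposited values, over all 13 libraries, with a pseudocount of 1. The fitting step was run on simulated reads drawn independently for each gene and library. Those reads held no admixed tissue and no lean with gene length. The run therefore says nothing of how the fit deals with these. The p-values measure the spread between these mice. Genes were named by smallest p, 12 per direction, among those without overlap and with a mean of at least 2 FPKM, leaving out unnamed models, pseudogenes, small RNAs and antigen receptor segments. From each list, the members of smallest p that lay to the side of its median were named, with members that lay the other way and 10 preset genes. The values of some genes that these rules name are left out here. Members and lists were chosen with earlier results of these data known. Promoter windows come from RefSeq (GRCm38.p6). Alternatives changed the pseudocount, filter, scaling, model, covariates and libraries used.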

Additional observations from a re-analysis of the deposited data

Results flagged for a closer look

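The mean log2(FPKM + 1) of the skeletal muscle genes was 4.07 in SF_ConD 2, far from the other 4 SF_ConD libraries (0.63 to 1.49). Its gap to the nearest of them was 0.749 of the whole range of the group. Chance sets a sample apart in this way in about 1 in 20 groups. The check covered every cell type list and the genes named by rule, and this was the only flag. Chance alone could give it. SC_ConD 3, at 8.63, was higher still.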

How the results depend on the processing

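The count of genes past the threshold was 0 in each direction in every alternative but 1: leaving out 1 library at a time gave 0 to 5 higher and 0 to 160 lower, the upper values both without SC_ConD 1. The counts at an unadjusted limma p under 0.05 (361 higher, 390 lower) reached at most 682 higher and 925 lower. They were 213 and 273 with limma-voom, 137 and 239 at a mean of at least 5 FPKM, and 533 and 830 with no filter. With the length trend as a covariate they were 615 and 925, and without the lymphoid-rich libraries 46 and 62. They were 166 and 298 with the B cell score and 73 and 253 with the liver score as a covariate. Leaving out SF_ConD 1 to 5 in turn gave 157, 637, 682, 154 and 187 higher, and leaving out SC_ConD 1 to 3 gave 526, 188 and 175 higher and 828, 141 and 245 lower. With both kinds of library left out (20 and 11) or both scores as covariates (24 and 23), alternatives chosen after seeing the data, fewest genes were left.

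The labels name no pairing of the mice by replicate number. Deviations of same-numbered libraries from their group means correlated at -0.578, 0.2 and -0.328. Those of differently numbered libraries ran from -0.51 to 0.612, so these values do not decide whether mice were paired. The replicate block gave 0 called in each direction, and 163 higher and 282 lower at an unadjusted p under 0.05.

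The 19 genes steady under 21 alternative fits were picked for keeping their direction. The genes of smallest p were picked without overlap, so no fit that leaves out libraries could turn them. Their kept direction is therefore no test. The direction turned in 18 gene and setting pairs, all of preset genes whose groups overlapped. The other list members named were not each run under every alternative. Without SC_ConD 2 and 3 the log2 fold change was 0.082 for Adipoq, -1.71 for Ucp1 and 1.20 for Ccl2. With the liver score it was 0.55 for Adipoq, -0.70 for Ucp1, 0.72 for Ccl2 and 0.40 for Adgre1. For Glycam1 it was -0.026 without the lymphoid-rich libraries and -0.081 with the B cell score. With both kinds of library left out it was 0.22 for Adipoq, -0.21 for Ucp1, 0.80 for Ccl2 and -0.078 for Glycam1, and with both scores -1.09 for Ucp1, 0.39 for Ccl2, 0.16 for Adgre1 and -0.86 for Glycam1. Leaving out 1 library moved Ucp1 between -0.41 and 1.89. The cause of these turns was not tested. Of the 40 list medians 16 changed sign without the lymphoid-rich libraries, 12 without SC_ConD 2 and 3 and 12 after rescaling to TPM.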
